A study of Saccharomyces cerevisiae with 12 samples.

Results

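RNA polymerase II (Pol II) occupancy over genes was compared between budding yeast carrying the pcf11-13 allele (Pcf11-13) and yeast carrying a tagged wild-type PCF11 gene (WT). The comparison took the Pol II libraries of both genotypes by their titles, which gave 4 of the 12 libraries of the series, and 4 input libraries of unprecipitated DNA from the same genotypes were set beside them. All strains were of the w303 background and mating type alpha and were grown with glucose. Both carried the marker alleles ade2-1, his3-11,15, trp1-delta and ura3-1, and the double allele of leu2-3 and leu2-112. In every strain the chromosomal PCF11 gene was replaced by TRP1, so that the only PCF11 gene was on a LEU2 plasmid. The plasmid held pcf11-13, with no tag named, in the Pcf11-13 strain, and PCF11 with V5 and MYC tags in the WT strain. The allele and the presence of tags therefore cannot be told apart in this comparison. Input DNA also differed at loci that these genotypes do not name, given below. Further differences between the strains cannot be told apart from the allele either. Each genotype had 2 biological replicates, and chromatin was precipitated with the antibody 4H8, which recognises the C-terminal domain of the largest Pol II subunit. Another genotype, Pcf11-DNL, which carries a tagged pcf11-deltaN gene on such a plasmid, entered only the estimate of the spread.

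Pcf11 is an essential subunit of cleavage factor I, the complex that takes part in cutting pre-mRNA at its 3' end. Through a domain that binds the phosphorylated C-terminal domain of Pol II it also acts in transcription termination, and the pcf11-13 mutations lie in that domain. Short non-coding transcripts such as small nucleolar RNAs (snoRNAs) end in yeast mainly through the Nrd1-Nab3-Sen1 pathway, to which Pcf11 also contributes, and the same pathway stops transcription early at some protein-coding genes, PCF11 among them. Polymerases that do not stop at a 3' end can run into the next gene, and occupancy by ChIP does not tell on which strand they travel.

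The measured quantity was the mean read coverage of each gene, scaled so that libraries of one assay are comparable, and called scaled coverage below. A gene was called when the Benjamini-Hochberg adjusted p of limma, fitted over 6642 genes, was under 0.05. Changes are log2 differences, Pcf11-13 minus WT. The gene lists below were chosen with earlier results of these data known, so their shares of calls are descriptions only. Mean unscaled Pol II coverage was 186 and 301 in Pcf11-13 and 140 and 162 in WT. WT replicate 1 stood apart by a narrow range over genes, with an SD of 0.93 on the log2 scale, against 1.14 and 1.13 in Pcf11-13 and 1.19 in WT replicate 2. Across genes, which are not independent replicates, log2 values of the replicates correlated at 0.99 in Pcf11-13 and 0.97 in WT. The 7 genes that only a cells use strongly had 19.9 to 48.1 in Pcf11-13 and 11.3 to 65.1 in WT, and the 4 alpha-cell genes had 181 to 2218 in Pcf11-13 and 142 to 2541 in WT, as their mating type label has it. The 10% of genes with the lowest WT occupancy had a median change of -0.19, which was 0.11 without WT replicate 1 and -0.49 without WT replicate 2, so directions at weakly occupied genes depended on that library.

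In Pcf11-13, Pol II was higher over a set of genes in which the neighbours of snoRNA genes, genes of histidine and arginine synthesis, and PCF11 itself stood among the largest changes. It was lower over a smaller set, which included a glucose transporter gene, a serine-responsive gene and 2 of 60 meiosis and sporulation genes. In all, 66 genes (0.994% of those tested) were called higher and 10 (0.151%) lower, and the median change of all genes was -0.02. At each of these 76 genes both Pcf11-13 libraries lay beyond both WT libraries, a separation that 40.1% of all tested genes also showed. Changes were mostly modest, with 6 genes above 1 and 4 below -1 on the log2 scale, and 51 of the 66 rises under 0.7. All 76 genes were also called without WT replicate 1, when 432 genes passed, and without WT replicate 2, when 1213 passed. Without Pcf11-13 replicate 1 there were 9 calls and without Pcf11-13 replicate 2 there were 8. Called in both of those fits were PCF11, YMR194C-A, PAM16, VMA9, YDR042C, HIS4, HXT1 and SPS4. Scaling on meiosis and sporulation genes, taken as genes with little Pol II, put the median change of all genes at 0.28 and gave 2 calls higher and 3 lower, of which only PCF11 and CHA1 were among the 76. The direction of all 76 genes was the same under each of the 16 alternatives, which could hardly have come out otherwise. The genotypes do not overlap at these genes, so leaving out a library would rarely reverse them. The smallest called changes, 0.37 and -0.44, also exceed in size the median of 0.28 under scaling on meiosis and sporulation genes.

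**Figure D1:**
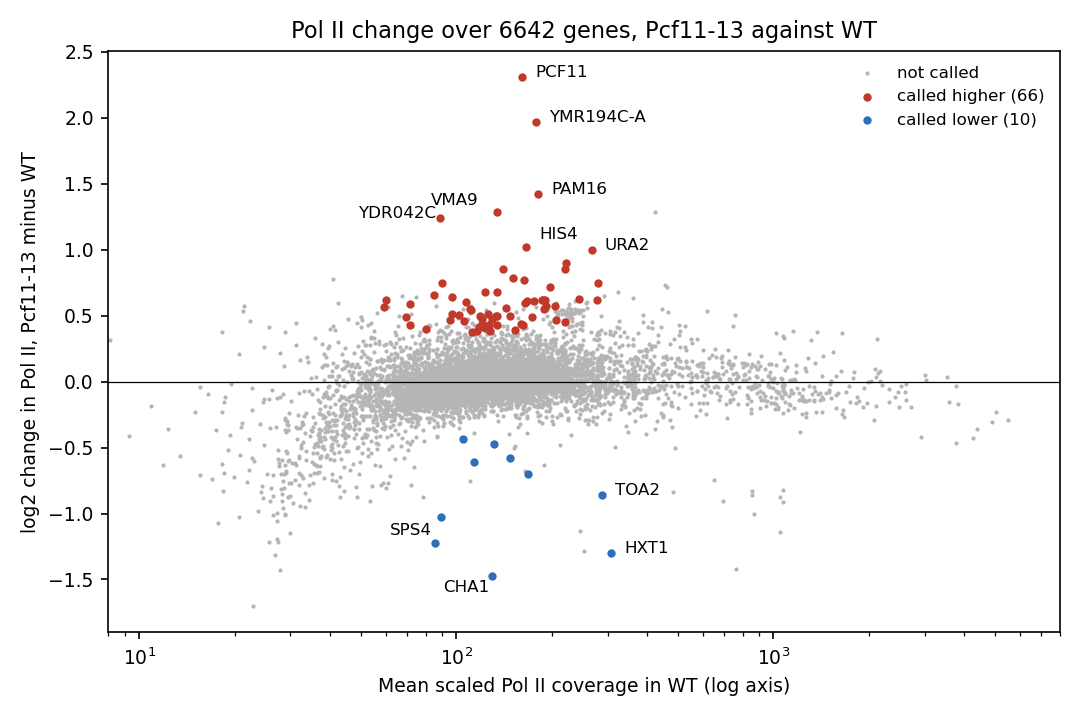
Each point is a gene, with its mean scaled Pol II coverage in WT on the x axis (log axis) and the log2 change, Pcf11-13 minus WT, on the y axis. The 66 genes called higher are red and the 10 called lower are blue, and PCF11 at 2.31 and CHA1 at -1.48 mark the ends of the called changes.

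PCF11 had the largest rise of all (YDR228C, chromosome IV, 921926 to 923806 in sacCer3). Its scaled Pol II coverage was 759 and 847 in the Pcf11-13 libraries, against 154 and 168 in the WT libraries. Both mutant libraries stood well above both WT libraries, with a 4.95-fold difference (log2 2.31, SE 0.10, adjusted p = 2.1e-05). The DNA of this gene differed as well. Relative to the median gene, its input coverage was 2.24 and 2.14 in Pcf11-13 and 1.45 and 1.53 in WT, an input change of 0.56. Subtracting input left a Pol II change of 1.75 (SE 0.09, adjusted p = 5.9e-06). No other gene of the cleavage factor I and torpedo list was called, which held 8 genes. In the 15-member cleavage and polyadenylation factor, the complex that carries the endonuclease, REF2 was called. REF2, which encodes an RNA-binding subunit, had 159 and 176 in Pcf11-13 and 119 and 121 in WT (log2 0.47, SE 0.08, adjusted p = 0.029).

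The next largest rise was at YMR194C-A, an open reading frame with no role and no coordinates in the gene table used. By systematic name it adjoins CMC4 (YMR194C-B), which faces the snoRNA gene SNR11 from 61 bp. Whether YMR194C-A itself lies beside SNR11 was not tested. The scaled coverage of YMR194C-A was 692 and 703 in Pcf11-13 libraries, against 180 and 176 in WT libraries (3.91-fold, log2 1.97, SE 0.11, adjusted p = 1.2e-04). The replicates of a genotype were close together and the genotypes lay far apart.

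Genes that start after a snoRNA gene on the same strand were described first among position classes, because a polymerase that passes the end of the snoRNA gene would enter them in the sense direction. The class held genes within 1000 bp, 32 in all, with other genes allowed in between. Of the class, 7 were called higher and 0 lower (21.9% higher, against 0.994% of all genes). The median change of the class was 0.08 (0.14 without WT replicate 2), against -0.02 over all genes. All 7 lay within 500 bp, where the class had 21 members and a median of 0.17, or 0.09 without WT replicate 1. In the rest of the class, between 500 and 1000 bp, 11 genes held no call. Among them STP22, RIM20, MAD1, IMO32 and MDM30 have another gene nearer than the snoRNA gene. The effect of distance alone was therefore not tested. YDR042C, an uncharacterised gene 398 bp after SNR47 (chromosome IV, 540601 to 541203), had 197 and 224 in Pcf11-13 and 98.0 and 79.8 in WT (log2 1.24, SE 0.11, adjusted p = 0.0012). TRS31, which encodes a subunit of the TRAPP vesicle-tethering complex and lies 279 bp after SNR13, had 412 and 384 in Pcf11-13 and 216 and 223 in WT (log2 0.85, SE 0.09, adjusted p = 0.0044). At both genes the 2 Pcf11-13 libraries were above the 2 WT libraries with a wide gap.

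USE1, a SNARE gene of Golgi-to-ER traffic 286 bp after SNR82, had 253 and 254 in Pcf11-13, against 158 and 124 in WT (log2 0.85, SE 0.12, adjusted p = 0.014). HEM4, which encodes uroporphyrinogen III synthase of the heme pathway and lies 210 bp after SNR5, had 264 and 258 in Pcf11-13, against 157 and 146 in WT (log2 0.79, SE 0.08, adjusted p = 0.0030). CTO1, 193 bp after SNR33, had 219 and 214 in Pcf11-13, against 137 and 132 in WT (log2 0.68, SE 0.07, adjusted p = 0.0044). None of these groups of libraries overlapped. SEN2, a subunit gene of the tRNA splicing endonuclease 246 bp after SNR79, had 214 and 207 in Pcf11-13, against 150 and 136 in WT (log2 0.56). PDX3, a gene of vitamin B6 metabolism 229 bp after SNR161, had 290 and 284 in Pcf11-13, against 200 and 214 in WT (log2 0.47, adjusted p = 0.049). It was the only one of the 7 that was not called once input was subtracted (0.42, adjusted p = 0.066). Other near neighbours stayed close to WT: SMC5, which encodes a chromosome structure protein and lies 344 bp after SNR50, had 92.5 and 97.1 in Pcf11-13 and 97.8 and 90.6 in WT. At that gene the libraries of the genotypes overlapped. GAL11, a Mediator subunit gene 393 bp after SNR81, had 142 and 144 in Pcf11-13 and 132 and 149 in WT, and overlapped likewise.

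Genes on the opposite strand whose 3' end faces the 3' end of a snoRNA gene would meet such a polymerase from their 3' side, in the antisense direction. This class held 29 genes within 1000 bp, with a median change of 0.33, and 27 of them were above 0. At CAP1 and MGR3 another gene lies nearer than the snoRNA gene. Of the 29, 5 were called higher and 0 lower (17.2% higher, against 0.994% of all genes). Both Pcf11-13 libraries exceeded both WT libraries at 22 of the 29 genes (75.9%), against 19.6% of all genes, and both were below at 1. Without WT replicate 1 the median was 0.20, and 0.52 without WT replicate 2. The value was 0.32 after quantile normalization and 0.63 under scaling on meiosis and sporulation genes, where the median of all genes was 0.28.

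PAM16, whose product belongs to the motor that pulls proteins into mitochondria, faces SNR37 from 317 bp (chromosome X, 227327 to 227776). It had 488 and 487 in Pcf11-13 libraries, against 176 and 186 in WT libraries, a 2.68-fold difference (log2 1.42, SE 0.09, adjusted p = 2.0e-04). At 86 bp from SNR43 lies VMA9, which codes for part of the vacuolar proton pump. It had 328 and 329 in Pcf11-13, against 129 and 140 in WT (log2 1.29, SE 0.08, adjusted p = 2.0e-04). The value of VMA9 fits a stretch of only 11 bp, so it covers a small part of the gene. Its input was also somewhat higher (0.20), which left 1.08 after subtraction (adjusted p = 1.5e-04). SSO2, a plasma membrane SNARE gene 266 bp from SNR83, had 472 and 470 in Pcf11-13 and 261 and 299 in WT (log2 0.75, SE 0.11, adjusted p = 0.019). KTR2, a mannosyltransferase gene 61 bp from SNR42, had 378 and 372 in Pcf11-13 and 230 and 258 in WT (log2 0.62, adjusted p = 0.022). DAS1, 195 bp from SNR128, had 294 and 288 in Pcf11-13 and 181 and 199 in WT (log2 0.62, adjusted p = 0.019). At each of these genes the Pcf11-13 replicates nearly coincided above the WT range.

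More heavily occupied genes of this class were also above WT without passing the test. ODC2, which encodes a mitochondrial oxodicarboxylate carrier and faces SNR35 from 72 bp, had 800 and 717 in Pcf11-13, against 428 and 495 in WT (log2 0.72, adjusted p = 0.061). With input subtracted it was called (0.72, adjusted p = 0.039). LIN1, facing SNR71, had 636 and 667 in Pcf11-13, against 405 and 486 in WT (log2 0.55, adjusted p = 0.12), also without overlap. The exceptions were the ribosomal protein gene RPS14A, at -0.27, and CMC4, at -0.05. CMC4 lies on chromosome XIII, encodes a mitochondrial protein and faces SNR11 from 61 bp. RPS14A and PMD1 are the 2 genes that belong to both snoRNA classes.

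**Figure D2:**
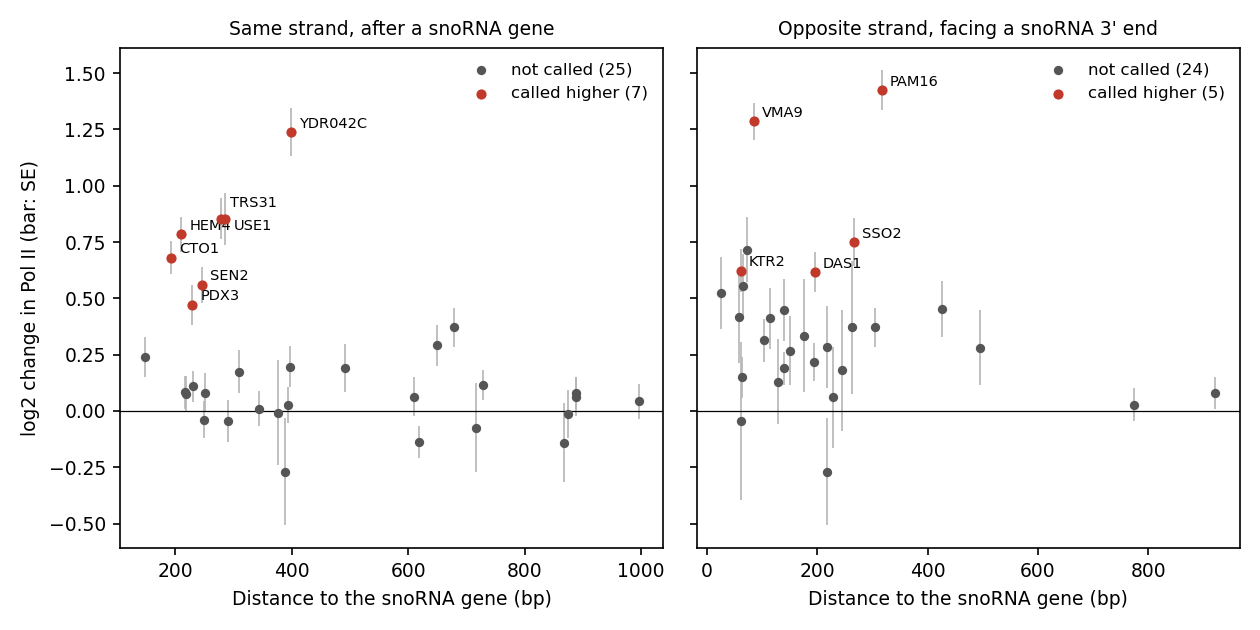
The log2 change in Pol II, Pcf11-13 minus WT, is plotted with its SE against the distance in bp from the snoRNA gene, for 32 genes after it on the same strand (left) and 29 genes facing its 3' end on the opposite strand (right). All called genes, 7 on the left and 5 on the right, are red and lie within 500 bp, and most members on the right are above 0.

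Together the 2 classes held 59 genes, of which 12 were called higher (20.3%), against 47 of 5912 genes with coordinates in neither class (0.795%). The remaining 7 of the 66 rises, YMR194C-A among them, had no coordinates and could not be placed in or out of a class. The counts in both classes depended on the libraries. With 1 Pcf11-13 library left out, either one, 1 same-strand gene and 2 facing genes were called. The median change of the 59 genes was 0.20, and it was 0.12 without WT replicate 1 and 0.33 without WT replicate 2. Over all genes the median was -0.0099 and -0.0009 in the same order. Under scaling on meiosis and sporulation genes 0 were called in either class. The files hold no rows for the snoRNA genes, so Pol II over these genes themselves was not analysed here.

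Genes next to any annotated gene, snoRNA genes included, had a share of Pol II calls near that of all genes. The classes below therefore share members with the snoRNA classes and are no separate comparison for them. All 7 same-strand snoRNA neighbours called are among the 22 rises given next. All 5 called genes that face a snoRNA gene are among the 24 with a convergent neighbour. Among 1956 genes that start within 500 bp after another gene on the same strand, 22 (1.12%, against 0.994% of all genes) were called higher and 1 lower. When that upstream neighbour was among the 10% of genes with the highest WT occupancy, 1 of 164 genes was called higher. Genes with a convergent neighbour within 500 bp gave 24 higher (0.881%) and 4 lower of 2725. Genes within 1000 bp of a tRNA gene gave 4 higher (0.966%) of 414. After subtraction of input, 17 of these tRNA neighbours were called higher and 1 lower, where 1.85% of all genes were called higher. Watson and Crick strand genes had 32 and 34 rises. Among called genes with coordinates there were 3 adjacent pairs, all of rises: SSO2 with ADD37, APE1 with YKL102C, and HIS4 with BIK1, a microtubule-binding protein gene. YJL150W (log2 0.62), which has no coordinates and is named after its value was seen, adjoins DAS1 (YJL149W) by systematic name. The 91 uncalled neighbours of genes called higher had a median change of 0.03, and 50 were above 0.

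Genes that Nrd1-dependent early termination is known to restrain were described next. This list had 10 genes with a median change of 0.37, of which 9 were above 0 (46% of all genes were). Called higher were 3 (30%, against 0.994% of all genes): PCF11, URA2 and ADE12. PCF11 stands apart, since it is the gene that was manipulated, lies on a plasmid and had an input change of 0.56. URA2 encodes the enzyme of the first steps of pyrimidine synthesis (YJL130C, chromosome X, 165723 to 172367). It had 550 and 512 in Pcf11-13, against 238 and 297 in WT (log2 0.99, SE 0.13, adjusted p = 0.011). ADE12, which encodes adenylosuccinate synthase, had 206 and 211 in Pcf11-13, against 156 and 139 in WT (log2 0.50, SE 0.09, adjusted p = 0.043). Both genes were called again after subtraction of input. NRD1 had 538 and 529 in Pcf11-13, against 355 and 450 in WT (log2 0.42, adjusted p = 0.25). IMD2, a gene of guanine nucleotide synthesis, had 413 and 381 in Pcf11-13, against 287 and 322 in WT (log2 0.38, adjusted p = 0.15). Their libraries did not overlap, but neither passed. TIS11, an mRNA decay factor of iron limitation, was the 1 gene below 0, with 162 and 159 in Pcf11-13 and 176 and 229 in WT. With 1 Pcf11-13 library left out, either one, PCF11 was the single gene called on the list.

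Of 17 genes of histidine and arginine synthesis, 5 were called higher and 0 lower (29.4% higher, against 0.994% of all genes), and the median change was 0.32. This list too was chosen with earlier results of these data known, so the share describes it and is no separate support. HIS4 encodes an enzyme of several steps of histidine synthesis (YCL030C, chromosome III, 65934 to 68333). It had 336 and 342 in Pcf11-13, against 170 and 163 in WT, a 2.03-fold difference (log2 1.02, SE 0.08, adjusted p = 6.5e-04). ARG4, the argininosuccinate lyase gene, had 428 and 423 in Pcf11-13 and 258 and 297 in WT (log2 0.62, adjusted p = 0.043). ARG1, the argininosuccinate synthetase gene, had 291 and 247 in Pcf11-13 and 169 and 182 in WT (log2 0.61, adjusted p = 0.029). ARG7, the ornithine acetyltransferase gene, had 170 and 156 in Pcf11-13 and 116 and 107 in WT (log2 0.54, adjusted p = 0.019). In these genes all Pcf11-13 libraries lay above the WT libraries. Others of the list showed no such separation. ARG8, of ornithine synthesis, had 153 and 152 in Pcf11-13 and 146 and 162 in WT. HIS7, of histidine synthesis, had 191 and 188 in Pcf11-13 and 171 and 191 in WT. With 1 Pcf11-13 library left out, either one, 1 gene of the list was called. The median was 0.25 without WT replicate 1 and 0.41 without WT replicate 2, against -0.0099 and -0.0009 over all genes. The strains carry his3-11,15, and HIS3 had 269 and 249 in Pcf11-13 and 194 and 219 in WT (log2 0.32, adjusted p = 0.16).

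Purine and one-carbon genes lay above 0 in 16 of 17 cases, with a median of 0.25. ADE12 was the only call (5.88%, against 0.994% of all genes). MTD1, a folate dehydrogenase gene, had 178 and 182 in Pcf11-13, against 141 and 135 in WT (log2 0.38, adjusted p = 0.053), and it was called after subtraction of input (0.43, adjusted p = 0.028). The other amino acid synthesis genes had a median of 0.15 over 46 genes with 0 calls, which was 0.07 without WT replicate 1 and 0.27 without WT replicate 2. All 33 proteasome genes were above 0, with a median of 0.10 and 0 calls. That median was 0.06 without WT replicate 1, 0.16 without WT replicate 2 and 0.01 after quantile normalization. Heme and ergosterol synthesis genes had a median of 0.11 over 31 genes, which was -0.01 without WT replicate 1 and 0.23 without WT replicate 2. The list held 2 calls (6.45%, against 0.994% of all genes), ERG28 and HEM4, which is already counted as a snoRNA neighbour. ERG28 encodes a scaffold of ergosterol enzymes and had 283 and 285 in Pcf11-13 and 172 and 212 in WT (log2 0.57, adjusted p = 0.050, which is just under the threshold).

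**Figure D3:**
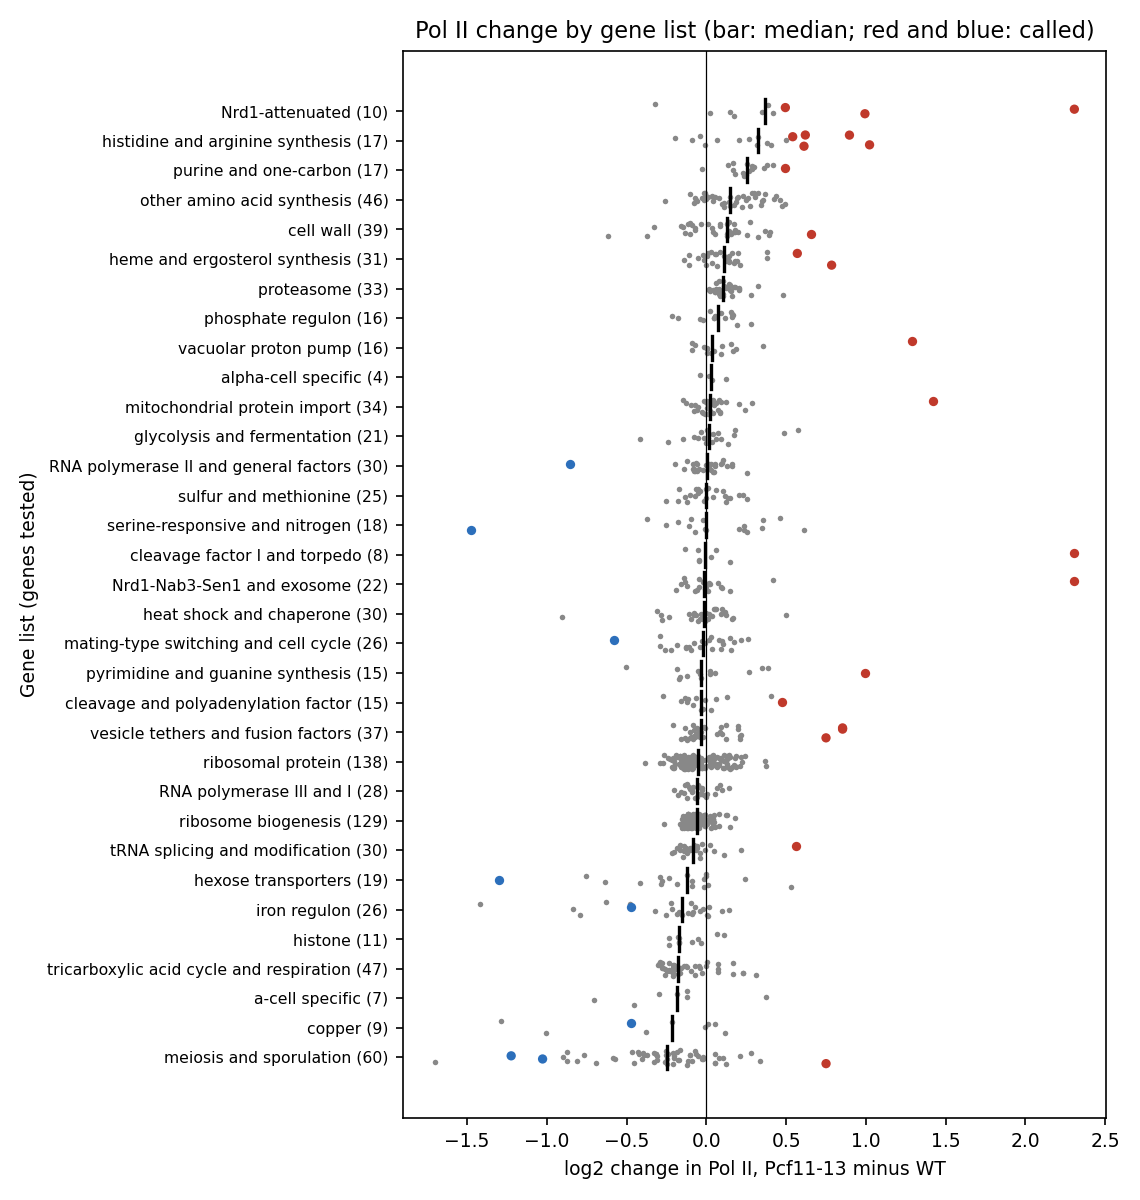
Each point is a gene, placed by its log2 change in Pol II, Pcf11-13 minus WT, and each row is a gene list with its number of genes tested and a black bar at its median. Red and blue points are called higher and lower, and list medians run from -0.24 for meiosis and sporulation to 0.37 for Nrd1-attenuated genes.

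The remaining rises fell in several functions. APE1, which encodes a vacuolar aminopeptidase, had 292 and 267 in Pcf11-13, against 153 and 174 in WT (log2 0.77, SE 0.09, adjusted p = 0.0070). NDJ1, a gene of meiotic telomere attachment, had 143 and 163 in Pcf11-13, against 90.4 in both WT libraries (log2 0.75, SE 0.08, adjusted p = 0.0044). SWF1, a palmitoyltransferase gene, had 339 and 306 in Pcf11-13, against 172 and 223 in WT (log2 0.72, SE 0.12, adjusted p = 0.042). The mutant libraries stood apart from WT in each, least clearly in SWF1, whose WT replicates spread most. TIR4, a cell wall mannoprotein gene, had 139 and 130 in Pcf11-13, against 86.5 and 83.1 in WT (log2 0.66, adjusted p = 0.0049). It was the single call among 39 cell wall genes (2.56%, against 0.994% of all genes). USE1, TRS31 and SSO2 were 3 rises among 37 genes of vesicle tethers and fusion factors (8.11%, against 0.994% of all genes), and all 3 adjoin snoRNA genes. VMA9 and PAM16 were likewise the single calls in the vacuolar proton pump list of 16 genes and the mitochondrial import list of 34. All of these calls are already counted in the snoRNA classes, and the lists were chosen with earlier results known. Their counts therefore say nothing separate about these functions.

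Smaller rises, chosen for mention after their values were seen, included PYC2, a pyruvate carboxylase gene (log2 0.49), SPT10, a regulator of histone genes (0.43), RAD55, of recombinational repair (0.38), and BNA1, of NAD synthesis (0.40). At each of them the libraries of the genotypes did not overlap, and each was called after subtraction of input. STO1, which encodes the large subunit of the nuclear cap-binding complex, had 181 and 196 in Pcf11-13, against 136 and 131 in WT (log2 0.49, adjusted p = 0.043). It was not called after subtraction of input (0.53, adjusted p = 0.065), and its value fits a stretch of only 25 bp.

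**Figure D4:**
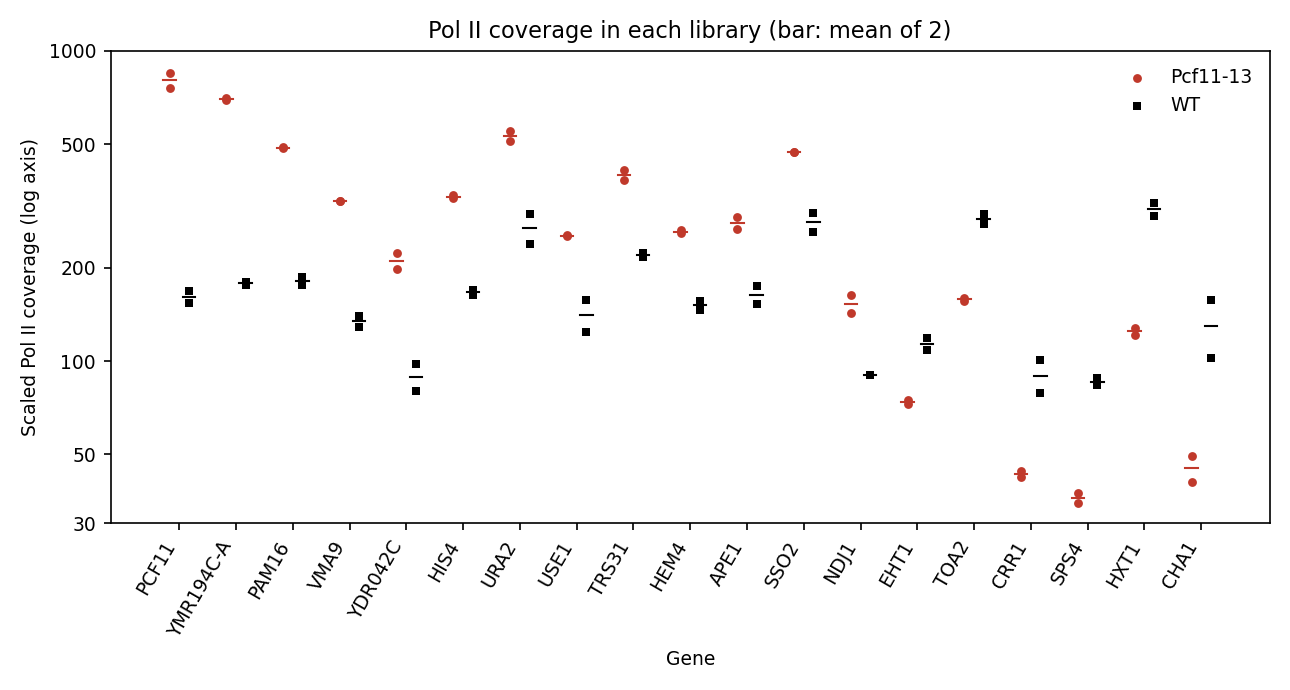
Scaled Pol II coverage (log axis) is shown for each library at 19 called genes, with Pcf11-13 as red circles left of WT as black squares and a bar at the mean of 2 libraries. Genotypes do not overlap at any of these genes: Pcf11-13 is above WT from PCF11 to NDJ1 and below it from EHT1 to CHA1.

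The falls led with CHA1, which encodes the catabolic serine and threonine deaminase that serine induces (YCL064C, chromosome III, 15798 to 16880). Its scaled coverage was 40.7 and 49.4 in Pcf11-13 libraries, against 157 and 102 in WT libraries (log2 -1.48, SE 0.22, adjusted p = 0.019). HXT1, the low-affinity glucose transporter gene (YHR094C, chromosome VIII, 290913 to 292625), had 121 and 128 in Pcf11-13, against 322 and 294 in WT (log2 -1.30, SE 0.10, adjusted p = 6.2e-04). Pcf11-13 was below WT in both genes, although the WT replicates of CHA1 lay far apart. HXT1 was the only call among 19 hexose transporter and sensor genes. HXT3, another low-affinity transporter gene, had 497 and 485 in Pcf11-13 and 456 and 539 in WT. HXT2, a high-affinity one, had 938 and 774 in Pcf11-13 and 428 and 810 in WT. In both of these the genotypes overlapped. The glucose sensor gene RGT2 had 166 and 169 in Pcf11-13 and 139 and 144 in WT (log2 0.24, adjusted p = 0.15).

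SPS4, a gene induced in sporulation, had 34.8 and 37.5 in Pcf11-13, against 83.5 and 88.1 in WT (log2 -1.22, SE 0.10, adjusted p = 0.0011). CRR1, a spore wall glycosidase gene, had 44.1 and 42.3 in Pcf11-13, against 78.9 and 100.5 in WT (log2 -1.03, SE 0.15, adjusted p = 0.019). Both lay below WT without overlap, whereas NDJ1 of the same 60-member meiosis and sporulation list was higher. The list thus had 2 calls lower (3.33%, against 0.151% of all genes) and 1 higher. In Pcf11-13, SPS4 and CRR1 lay within the range of the a-cell genes (19.9 to 48.1). CRR1 has FRE1, which changed by -1.42 without a call, 644 bp upstream on the other strand. The median of the list was -0.24, but 0.07 without WT replicate 1 and 0.05 under scaling on its own genes. EHT1, an acyltransferase gene of ethyl ester synthesis, had 74.6 and 72.9 in Pcf11-13, against 118 and 109 in WT (log2 -0.61, adjusted p = 0.011). HO, the mating-type switching endonuclease gene, had 96.5 and 99.1 in Pcf11-13, against 133 and 162 in WT (log2 -0.58, adjusted p = 0.049). PEX30, a gene of peroxisome regulation, had 76.5 and 78.2 in Pcf11-13, against 109.9 and 100.3 in WT (log2 -0.44, adjusted p = 0.045). These 3 falls were small, and the Pcf11-13 replicates were close together in each.

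Among copper and iron genes a single gene was called. CCC2, which encodes a copper transporter that loads the iron oxidase Fet3, had 94.7 and 94.2 in Pcf11-13, against 124 and 139 in WT (log2 -0.47, SE 0.09, adjusted p = 0.047). YDR269C, with no coordinates here and next to CCC2 (YDR270W) by its systematic name, had 106 and 101 in Pcf11-13, against 165 and 172 in WT (log2 -0.70, adjusted p = 0.0033). Larger differences with wider spread did not pass. FRE1, a metal reductase gene, had 291 and 260 in Pcf11-13, against 572 and 952 in WT (log2 -1.42, adjusted p = 0.080). FRE7, another reductase gene, had 107 and 93.5 in Pcf11-13, against 194 and 311 in WT (log2 -1.29, adjusted p = 0.055), and was called after subtraction of input (-1.31, adjusted p = 0.017). FET3 had 285 and 241 in Pcf11-13 and 371 and 592 in WT (log2 -0.83, adjusted p = 0.15). In FRE1, FRE7 and FET3 both Pcf11-13 libraries were below both WT libraries, and the spread came mostly from WT. The median was -0.16 over 26 iron regulon genes and -0.22 over 9 copper genes (-0.14 without Pcf11-13 replicate 2). Both medians turned positive (0.14 and 0.08) under scaling on meiosis and sporulation genes, where the median of all genes was 0.28.

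Other large lists held no call. Tricarboxylic acid cycle and respiration genes had a median of -0.18 over 47 genes, ribosomal protein genes -0.06 over 138, ribosome biogenesis genes -0.06 over 129 and histone genes -0.17 over 11. These medians depended on the WT libraries. Without WT replicate 1 they were -0.28, -0.24, -0.12 and -0.32 in the same order, and without WT replicate 2 they were -0.04, 0.11, -0.01 and 0.06. The respiration median was -0.09 without Pcf11-13 replicate 2, the ribosomal protein median was -0.03 there, and the ribosome biogenesis median was -0.01 without Pcf11-13 replicate 1. All 4 turned positive under scaling on meiosis and sporulation genes (0.12, 0.24, 0.24 and 0.13 in the same order). They stayed below the median of all genes, which was 0.28 there. Of 30 genes of Pol II subunits and general factors, TOA2 alone was called, lower (3.33%, against 0.151% of all genes), and its DNA moved with it.

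Input DNA was compared in the same way, since a gene present in more copies gives more coverage in both assays. Of 6643 genes, 17 were called in input (0.256%), 8 higher (0.12%) and 9 lower (0.135%) in Pcf11-13. Values below are input coverage relative to the median gene. The plasmid and cassette genes were higher. LEU2 had 4.11 and 4.03 in Pcf11-13 and 2.95 and 3.04 in WT. TRP1 had 1.58 and 1.55 in Pcf11-13 and 1.02 in both WT libraries. YDR008C, adjacent to TRP1 (YDR007W) by systematic name, had 2.74 and 2.70 in Pcf11-13, against 0.98 and 0.99 in WT, the largest input change (1.46). MHF1, a gene of a DNA repair complex, had 1.62 and 1.55 in Pcf11-13, against 1.05 and 1.09 in WT. TSC13, of fatty acid elongation, had 1.45 and 1.43 in Pcf11-13, against 1.07 and 1.06 in WT. Replicates differed by far less than the genotypes at all of these genes.

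Lower in Pcf11-13 input were the CUP1 copper metallothionein repeat and a stretch of chromosome XI. CUP1-1 had 4.56 and 4.64 in Pcf11-13, against 7.76 and 7.56 in WT. CUP1-2 had 4.53 and 4.69 in Pcf11-13, against 7.84 and 7.61 in WT, although these near-identical copies cannot be told apart. RSC30, a chromatin remodeler gene beside them, had 2.28 and 2.34 in Pcf11-13, against 3.51 and 3.46 in WT. The neighbours FBA1, MPE1 and TOA2 on chromosome XI (326408 to 330534) had 0.99 to 1.15 in Pcf11-13 and 1.41 to 1.74 in WT. TOA2, which encodes the small subunit of TFIIA, had scaled Pol II coverage of 156 and 160 in Pcf11-13, against 276 and 299 in WT. That change of -0.86 (adjusted p = 0.0030) stood beside an input change of -0.75, and -0.11 was left after subtraction (adjusted p = 0.66). At the CUP1 genes the Pol II changes of -0.83 and -0.86 did not pass (adjusted p = 0.063 and 0.058), and -0.10 and -0.12 were left.

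**Figure D5:**
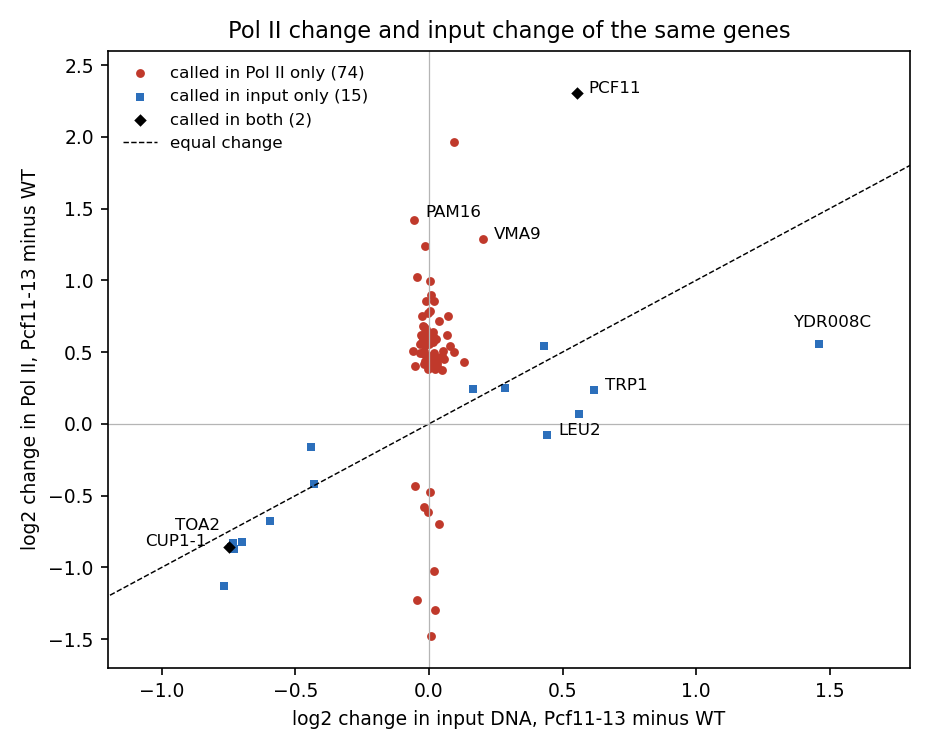
The log2 change in Pol II (y axis) is plotted against the log2 change in input DNA (x axis), both Pcf11-13 minus WT, for genes called in either assay, with a dashed line where both are equal. Most genes called in Pol II stand near 0 on the input axis, whereas TOA2 and CUP1-1 lie near the dashed line and PCF11 lies above it.

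For the other Pol II changes input differed little. The input change was within 0.1 of 0 at 72 of the 76 called genes, and PCF11 and TOA2 were the only ones called in both assays. After subtraction of input 139 genes (2.09%) were called, 123 higher (1.85%) and 16 lower (0.241%), and 69 of the 76 were among them with the same sign. The 7 others were TOA2, PDX3, STO1, ADD37, YNL058C, MIN3 and YBR056C-B, of which MIN3 and YBR056C-B are named after their values were seen. The markers showed no Pol II call. LEU2 had 320 and 294 in Pcf11-13 and 302 and 347 in WT. TRP1 had 280 and 221 in Pcf11-13 and 196 and 226 in WT. URA3 had 362 and 249 in Pcf11-13 and 343 and 338 in WT. Libraries of the genotypes overlapped at each of these. With its higher input, LEU2 had a Pol II change of -0.52 after subtraction (adjusted p = 0.014). ADE2 had 134 and 133 in Pcf11-13, against 113 and 111 in WT (log2 0.25, adjusted p = 0.15). Input also differed at MHF1, TSC13 and the chromosome XI stretch, which the strain genotypes do not name. Whether these differences, or those of plasmid, cassette or repeat genes, have a part in Pol II changes elsewhere was not tested.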

How the data were processed

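Pol II and input libraries, single-end reads of 50 nt, came from 2 cultures per genotype, grouped and numbered by title. The deposited values are a signal, the mean read coverage per gene made by the authors, not whole-number counts, so limma took the place of a count test. Depth in reads is unknown and no counting interval is given; 2 libraries per genotype limit the precision. Named in the submitters' processing notes are the build sacCer3 and, with no role or order, BWA 0.7.17-r1188, deepTools 3.1.2 and Trimmomatic 0.38; how coverage was averaged is not given in the sources used here.

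Coverage was divided by trimmed-mean factors (trims of 30% and 5%, no weights), and log2(value + 1) was fitted in limma 3.58.1 (R 4.3.3) with trend, for genes whose coverage reached 10 in 2 or more libraries. Folds understate changes of weakly covered genes. The 6 libraries of an assay shared the spread (3 residual degrees of freedom). The same fit was made for input and for Pol II less input of the same title number. Scripts were tested on simulated data.

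Coverage times gene length was whole, within 0.0006 per base, for 139 of 141 Watson and 51 of 150 Crick genes of at most 300 bp, so Crick windows may differ from the annotation, and 143 longer genes fitted a short stretch only. Of 6650 genes, 5976 matched the RefSeq gene table of assembly R64; 674 did not and have no coordinates. Reads were not separated by strand, so overlapping genes share them.

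Members and lists were chosen with earlier results of these data known. In all, 33 gene lists were described by counts and medians. The genes named were the 15 largest rises and 10 largest falls among called genes without overlap, up to 5 called genes per list, up to 10 per snoRNA class, the 5 largest input changes each way, up to 5 genes called in Pol II but not after subtraction of input, those called in both, and PCF11 and the markers. Any others were picked as list examples with their values known. The rule also takes 1 gene that is left out here.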

Additional observations from a re-analysis of the deposited data

How the results depend on the processing

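With 1 library left out, calls ranged from 8 to 1213 in Pol II (76 in the fit reported), from 28 to 810 in Pol II less input (139) and from 15 to 18 in input (17). Pol II calls were 278 after quantile normalization (213 higher, 65 lower), 292 with library totals, 232 at a coverage of at least 50 and 232 with the 4 Pcf11-13 and WT libraries alone. They were 630 without both libraries of narrow range, 32 with no filter, 10 with no mean-variance trend, and 5 under scaling on meiosis and sporulation genes (2 higher, 3 lower, against 66 and 10). For Pol II less input the counts were 217 after quantile normalization, 299 with library totals, 228 with the 4 libraries, 877 without the narrow libraries, 91 with no filter, 7 with no trend and 3 under scaling on meiosis and sporulation genes. Input gave 10 after quantile normalization and 9 without the narrow libraries. Replicates of equal number did not deviate together (r = -0.09 between Pcf11-13 and WT, -0.07 between Pcf11-13 and Pcf11-DNL, and -0.89 between Pcf11-DNL and WT), so they share only a number. The last value pairs the narrow WT replicate 1 with the narrow Pcf11-DNL replicate 2, and both entered the spread behind every call; the replicate block gave 107 Pol II calls, 215 in Pol II less input and 16 in input. Median-of-ratios scaling and pseudocounts of 0.1 and 10 gave 81, 72 and 96 Pol II calls. Of the 51 genes taken by the naming rule, 38 were no longer past the threshold under scaling on meiosis and sporulation genes, 30 with no trend, 19 with no filter, 31 without Pcf11-13 replicate 1 and 32 without Pcf11-13 replicate 2. None of the 76 genes called in Pol II changed direction in these settings, a weak check since the genotypes do not overlap at any of them. Several list medians changed sign, as given beside them. Where counts moved, the cause was not tested. At weakly covered genes the depth behind a value is unknown, so small differences there could not be weighed against counting error.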

Other observations

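After subtraction of input, 70 genes were called that had not been called in Pol II, 63 higher and 7 lower. Those below were chosen after their values were seen, and their adjusted p-values are from limma on Pol II less input. GAP1, the general amino acid permease gene, had scaled Pol II coverage of 348 and 376 in Pcf11-13, against 261 and 214 in WT (0.63 after subtraction, adjusted p = 0.029). HXK1, a hexokinase gene, had 183 and 147 in Pcf11-13, against 97.6 and 124 in WT (0.57, adjusted p = 0.039). IDP2, the cytosolic isocitrate dehydrogenase gene, had 123 and 110 in Pcf11-13, against 87.1 and 90.4 in WT (0.44, adjusted p = 0.028). MPC3, a mitochondrial pyruvate carrier gene, was lower, with 61.9 and 53.1 in Pcf11-13, against 87.2 and 70.9 in WT (-0.50, adjusted p = 0.037). The genotypes did not overlap at these 4 genes.

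Several open reading frames known here only by their systematic names had almost the same values. YJR027W had 332 and 339 in Pcf11-13, against 205 and 254 in WT (0.54 after subtraction, adjusted p = 0.035). YPL257W-B had 338 and 338 in Pcf11-13, against 208 and 266 in WT (0.55, adjusted p = 0.036). Whether such frames are near-identical copies that share reads was not tested.

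NCE103, the carbonic anhydrase gene, had 1767 and 560.2 in Pcf11-13, against 308 and 540.4 in WT (log2 1.28, adjusted p = 0.30 in limma on Pol II). Its difference rests on Pcf11-13 replicate 1, and it was chosen after its values were seen.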
